A study of Arabidopsis thaliana with 24 samples.

Results

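The transcriptomes of *gnat2* and WT rosettes of *Arabidopsis thaliana* were compared after 2 h of high light (HL), on the 8 arrays of the 24 in the series whose titles name this treatment, 4 of each genotype. In *gnat2*, the gene *GNAT2* is knocked out by a T-DNA (line SALK_033944), and WT was Col-0. All plants were 4.5 weeks old, had been raised on soil in short days at 120 µmol per square metre and second, and were treated 2 h after the regular onset of light. HL was 1000 µmol per square metre and second for 2 h. The other arrays, 8 from control light (C, plants left at 120 µmol per square metre and second) and 8 from 2 h of darkness (D), again with 4 *gnat2* and 4 WT replicates each, served to show which genotype differences were also seen without HL. Whole rosettes were harvested, so that cell types were not separated, and the mutant genotype is represented by 1 insertion line.

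GNAT2, also known as NSI, is an acetyltransferase of the chloroplast stroma that acetylates lysines and protein N-termini. Plants without it cannot move their light-harvesting antenna towards photosystem I, the adjustment called state transitions. HL exposes leaves to more excitation than carbon fixation can use, and the known fast transcript responses to it include the early light-induced proteins (ELIPs), which are chlorophyll-binding relatives of the antenna proteins, heat shock proteins and the enzymes of flavonoid synthesis. The comparison addressed how far the absence of GNAT2 alters transcript levels in this stress.

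Each array gave a log2 value for 27826 transcripts, with 0 missing values, a median of 2.35 and quartiles of 1.35 and 4.79. A log2 difference of 1 is a change of 2-fold, and levels of different transcripts are not comparable, because their probes differ. No detection calls were used, so a value near or below the median may be background, and sizes that rest on such values are uncertain. Pearson's r between the HL arrays of one genotype, across transcripts that are not independent, lay between 0.991 and 0.993 in *gnat2* and between 0.983 and 0.986 in WT. The median SD per transcript was 0.15 in *gnat2* and 0.21 in WT, and 69.4% of all transcripts varied more in WT. Of the first 2 principal components of the 8 arrays, the first, with 26.3% of the variance, separated *gnat2* from WT. The second, with 19.1%, separated replicates 1 and 2 from replicates 3 and 4 within both genotypes. The 10 markers of rosette leaf cells fixed as a check summed to linear values between 11452 and 12102 on *gnat2* arrays and between 12187 and 12625 on WT arrays. All *gnat2* sums were thus below all WT sums. Such a sum weighs the highest transcripts most, and among them the Rubisco gene *RBCS1A* held 12.7 on all 8 arrays. The 12 markers of root, flower and seed summed to between 32.6 and 37.0 in *gnat2* and between 30.4 and 49.3 in WT, and 1 of them, the root protein gene *PYK10*, exceeded the array median in either group mean.

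HL rosettes of *gnat2* differed from WT in a small share of the transcriptome. In a limma fit over all 24 arrays, 533 transcripts, or 1.92% of those measured, were called at an adjusted p under 0.05 (two-sided, Benjamini-Hochberg), with 260 higher in *gnat2* (0.934%) and 273 lower (0.981%). Most differences were moderate. Of the called transcripts, 395 differed by 0.5 to 1 on the log2 scale, 89 by less than 0.5 and 49 by more than 1. Large differences were mostly rises, with 43 transcripts more than 2-fold higher in *gnat2* and 6 more than 2-fold lower. The 43 comprised 33 protein-coding transcripts, 5 tRNAs, 3 snoRNAs, 1 lncRNA and 1 plastid transcript, and all 6 falls were of protein-coding transcripts. The 4 values of *gnat2* lay entirely on one side of the 4 values of WT in 491 of the 533 called transcripts, and in 10.5% of all transcripts. For 109 called transcripts both group means were below the median of all values.

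**Figure D1:**
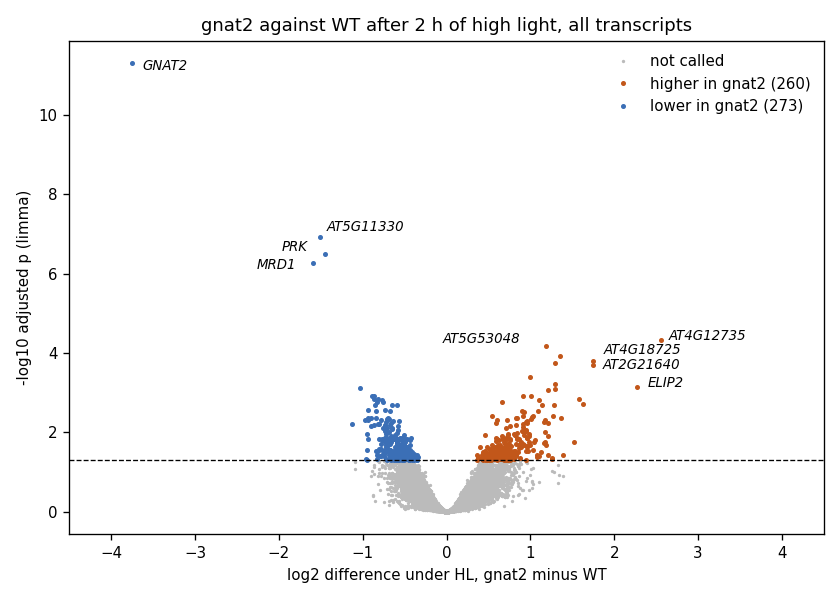
Log2 difference of *gnat2* minus WT under HL (x axis) against the negative log10 of the adjusted p from limma (y axis), 1 point per transcript; the dashed line marks an adjusted p of 0.05. The 260 transcripts higher in *gnat2* reach larger differences than the 273 lower ones, apart from *GNAT2*, *MRD1*, AT5G11330 and *PRK*.

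The number of calls fell when any of the 8 HL arrays was left out, which also leaves fewer degrees of freedom. It was 219, 251, 217 and 252 without *gnat2* HL replicate 1, 2, 3 and 4, with 209, 232, 206 and 234 among the 533. Without WT HL replicate 1, 2, 3 and 4 it was 261, 393, 481 and 324, with 230, 312, 348 and 264 among the 533. Cyclic loess normalization gave 291 higher and 196 lower transcripts (59.8% higher, against 48.8% in the deposited scaling), so that the balance between the directions depends on the scaling.

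The knocked-out gene was checked first. *GNAT2* (AT1G32070) had log2 values of 2.06, 2.31, 1.63 and 2.02 on the *gnat2* arrays, against 5.70, 5.70, 5.79 and 5.84 on the WT arrays. No array of one genotype came near the other, which fits the labels. The difference was -3.75 (standard error 0.19, adjusted p = 4.90e-12), and the mean of 2.01 in *gnat2* is below the array median. Under C and D the differences were -4.03 and -4.08.

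The gene next to it, *PRK* (AT1G32060), encodes phosphoribulokinase, which regenerates the CO2 acceptor in the Calvin-Benson cycle. Its values were 7.09, 7.43, 7.32 and 7.22 in *gnat2*, against 8.45, 8.65, 8.88 and 8.89 in WT. The highest *gnat2* value was thus well below the lowest WT value. The difference of -1.45 (standard error 0.13, adjusted p = 3.17e-07) was also seen under C (-0.997) and D (-0.91), and its larger size under HL was not called (adjusted p = 0.677 against C and 0.306 against D). Of the 5 measured loci on either side of *GNAT2* in the RefSeq annotation, *PRK* was the one that was called. The locus on the other side, *LrgB* (AT1G32080), had a difference of 0.09 (adjusted p = 0.804). Of the others, *PRR1* (AT1G32100) had the largest difference, -0.69 (adjusted p = 0.116), with -0.49 under C and 0.04 under D, and *SCAMP5* (AT1G32050), beyond *PRK*, one of -0.08 (adjusted p = 0.824). An effect of the insertion on *PRK* and a response to the loss of the GNAT2 protein cannot be told apart in this line.

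Transcripts for partners of PRK were lower as well under HL. In chloroplasts, the small protein CP12 binds PRK and glyceraldehyde 3-phosphate dehydrogenase into an inactive complex. *CP12-2* (AT3G62410) had values of 7.82, 7.96, 8.04 and 7.85 in *gnat2*, against 8.62, 8.53, 8.56 and 8.77 in WT, and the groups did not overlap. It was lower by -0.70 (standard error 0.12, adjusted p = 0.00426). Unlike *PRK*, it was not called under C (-0.15, adjusted p = 0.593) or D (-0.13, adjusted p = 0.634). *GAPA* (AT3G26650), a subunit of the dehydrogenase, had 8.42, 8.47, 8.48 and 8.32 in *gnat2*, against 8.86, 9.05, 8.99 and 8.94 in WT. Its difference was -0.54 (standard error 0.11, adjusted p = 0.0139), again without overlap. For *GAPA* it was -0.19 under C (adjusted p = 0.414) and -0.41 under D (adjusted p = 0.0348). *PRK*, *CP12-2* and *GAPA* were the 3 called members of the 20 in the Calvin-Benson list, all lower, beside 0.981% of all transcripts called lower. At an unadjusted p under 0.05 in limma, 5 members were lower and 0 higher, beside 4147 of all 27826 transcripts in either direction. The median of the list was -0.06, against -0.01 over all transcripts. The other genes of the same proteins gave *GAPA-2* 0.01, *GAPB* 0.03 and *CP12-1* -0.16, of which 0 were called by limma at an adjusted or unadjusted p under 0.05. *RBCS1A*, a small subunit gene of Rubisco, held one value, 12.7, on all 8 arrays, so that a difference in this transcript could not have been seen.

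**Figure D2:**
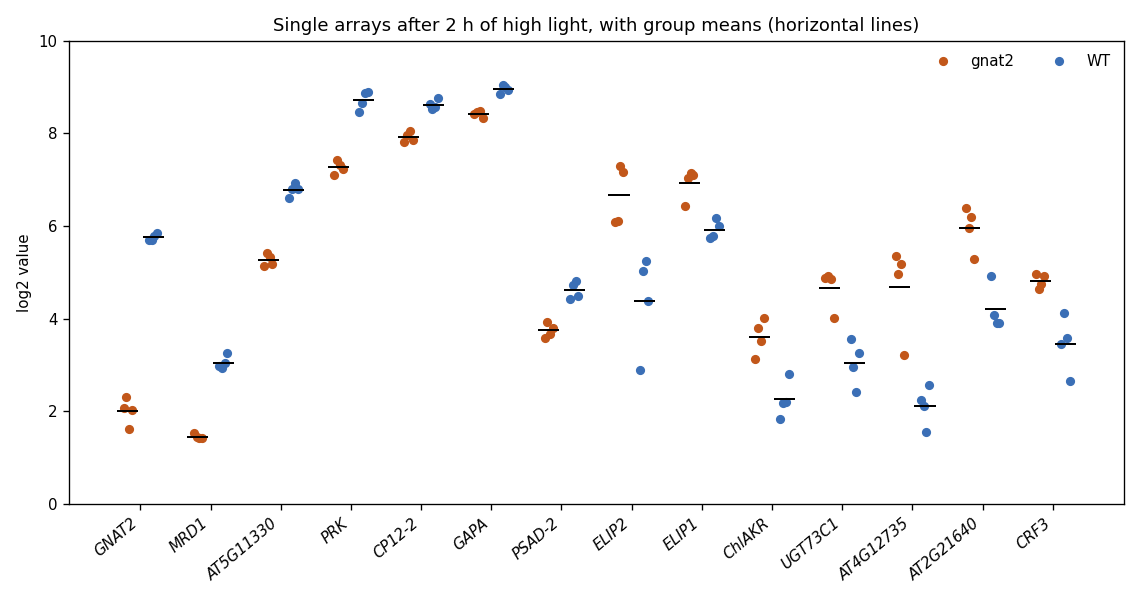
Log2 values (y axis) of 14 named transcripts (x axis) on the single arrays after 2 h of HL, with *gnat2* in orange left of WT in blue, 4 arrays each, and horizontal lines at the group means. The groups do not overlap in any of the 14, which for the largest rises and falls was a condition of naming. *ELIP2* and AT4G12735 vary more within the genotypes than *PRK* or *GAPA*.

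After *GNAT2*, the largest falls were those of *MRD1* and AT5G11330, ahead of *PRK*. The largest rises and falls named here were taken from called transcripts whose groups do not overlap. Non-overlap was thus a condition of naming them and not a further result. *MRD1* (AT1G53480), named for its lower level in the methionine-accumulating mutant *mto1*, had 1.53, 1.44, 1.42 and 1.42 in *gnat2*, against 2.97, 2.93, 3.04 and 3.25 in WT. The *gnat2* values are below the array median and differ little from each other. Its difference was -1.60 (standard error 0.15, adjusted p = 5.26e-07). The locus AT5G11330, without a symbol in RefSeq, had 5.14, 5.41, 5.32 and 5.17 in *gnat2*, against 6.59, 6.79, 6.92 and 6.79 in WT, a difference of -1.51 (standard error 0.12, adjusted p = 1.21e-07). Both of these falls recurred under C (-1.19 and -1.49) and D (-1.88 and -1.33), as did that of AT4G21650 (-1.13 under HL, adjusted p = 0.00595, -1.11 under C and -1.27 under D).

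*PMEPCRA* (AT1G11580), a pectin methylesterase gene, had 3.84, 3.38, 3.19 and 4.07 in *gnat2*, against 4.82, 4.57, 4.46 and 4.74 in WT (-1.03, standard error 0.15, adjusted p = 7.56e-04). *THE1* (AT5G54380), which encodes the receptor kinase THESEUS1 that monitors the cell wall, lay between 1.84 and 2.16 in *gnat2* and between 2.55 and 3.34 in WT (-0.95, adjusted p = 0.0278). *AGP2* (AT2G22470), an arabinogalactan protein gene, lay between 2.23 and 2.52 in *gnat2* and between 2.82 and 4.47 in WT (-0.96, adjusted p = 0.0476), where WT replicate 4 alone was above 3.03. The calls of *THE1* and *AGP2* each held in 3 of the 8 fits without 1 array. That of *AGP2* was lost without any one of the *gnat2* replicates or WT replicate 4, with adjusted p up to 0.126, and that of *THE1* without *gnat2* replicate 1, 3 or 4 or WT replicate 1 or 4, with adjusted p up to 0.0928. The remaining falls were those of *MLO3* (AT3G45290, a relative of the mildew susceptibility gene *MLO*; -0.97, adjusted p = 0.00488), *CYP71B12* (AT5G25130, a cytochrome P450; -0.95, adjusted p = 0.0109) and the auxin-responsive *SAUR63* (AT1G29440; -0.94, adjusted p = 0.00439). For these 3, all 8 fits without 1 array kept the call.

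Of the transcripts that were higher in *gnat2*, those of the ELIPs are the best known in HL. *ELIP2* (AT4G14690) had 6.08, 6.11, 7.30 and 7.16 in *gnat2*, against 2.90, 5.03, 5.24 and 4.38 in WT. All *gnat2* values were above all WT values, and WT replicate 1 was the lowest by far. The difference was 2.28 (standard error 0.33, adjusted p = 7.14e-04), the second largest rise of a protein-coding transcript. *ELIP1* (AT3G22840) had 6.43, 7.04, 7.14 and 7.09 in *gnat2*, against 5.73, 5.77, 6.17 and 5.999 in WT, without overlap, and was higher by 1.01 (standard error 0.15, adjusted p = 0.00119). Both genes responded to HL in each genotype, *ELIP2* by 5.44 in *gnat2* and 3.02 in WT and *ELIP1* by 4.79 in *gnat2* and 4.13 in WT, relative to C. With the 8 HL arrays alone in the fit, the adjusted p of *ELIP2* was 0.0563 and that of *ELIP1* 0.0329.

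*ChlAKR* (AT2G37770) encodes a chloroplastic aldo-keto reductase, an enzyme type that reduces reactive carbonyls. It had 3.12, 3.79, 3.52 and 4.01 in *gnat2*, against 1.84, 2.18, 2.20 and 2.80 in WT, a difference of 1.35 (standard error 0.17, adjusted p = 1.22e-04). *UGT73C1* (AT2G36750), a UDP-glucosyltransferase gene, had 4.88, 4.93, 4.85 and 4.01 in *gnat2*, against 3.56, 2.95, 2.41 and 3.25 in WT, a difference of 1.63 (standard error 0.26, adjusted p = 0.00196). By the same condition on overlap, the lowest *gnat2* value was above the highest WT value in both. Of the 4 WT values of *ChlAKR*, 3 were below the array median.

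The largest rise of all was that of AT4G12735, a protein-coding locus with no symbol in RefSeq. It had 5.35, 4.96, 5.18 and 3.21 in *gnat2*, against 2.25, 2.12, 1.56 and 2.56 in WT, so that *gnat2* replicate 4 stood between the other *gnat2* arrays and WT. The difference was 2.55 (standard error 0.30, adjusted p = 4.81e-05), and the WT mean of 2.12 leaves its size uncertain. AT2G21640, a locus of the mitochondrial stress list without a RefSeq symbol, had 6.40, 5.95, 6.18 and 5.28 in *gnat2*, against 4.92, 4.08, 3.90 and 3.92 in WT (1.75, standard error 0.23, adjusted p = 2.03e-04). *CRF3* (AT5G53290), a transcription factor of the cytokinin response factor group, had 4.97, 4.64, 4.74 and 4.92 in *gnat2*, against 3.44, 4.11, 3.57 and 2.66 in WT (1.37, standard error 0.24, adjusted p = 0.00426). That none of these groups overlapped was a condition of naming the largest rises.

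The rest of the 10 largest protein-coding rises without overlap of the groups lay between 1.29 and 1.58. AT1G75580, listed in RefSeq as the auxin-responsive *SAUR51*, had 3.88, 3.98, 4.11 and 4.04 in *gnat2*, against 2.66, 2.47, 3.34 and 2.36 in WT (1.29, standard error 0.17, adjusted p = 1.83e-04). AT5G54450 (1.58, adjusted p = 0.00145) and AT3G24516 (adjusted p = 5.96e-04, with 1.43 under C and 1.11 under D) have no symbol. AT5G10336 (1.39, adjusted p = 0.0364) was called in 4 of the 8 fits without 1 array, with adjusted p up to 0.137, and lost without *gnat2* replicate 2 or 3 or WT replicate 1 or 4. Its differences under C and D, 1.26 and 1.18, were of like size but not called (adjusted p = 0.0645 and 0.0507).

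Gene lists were then read by counts, beside the background of 0.934% of all transcripts called higher and 0.981% called lower. Counts at an unadjusted p under 0.05 in limma are to be read beside 4147 of all 27826 transcripts under HL. The lists were drawn up with earlier results of these data known, and no list was tested. Of the 10 members of the ELIP and photoprotection list, *ELIP1* and *ELIP2* were called higher and 0 lower, and the list median was 0.02. *NPQ4*, which encodes the PsbS protein of non-photochemical quenching, had a difference of -0.03 (adjusted p = 0.945). *NPQ1*, for violaxanthin de-epoxidase, had -0.36 (adjusted p = 0.0794). The rises in this list were thus those of its 2 ELIP genes.

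The machinery in which *gnat2* is known to be impaired gave no call under HL. Of the 8 genes for state transitions and the docking of the antenna to photosystem I, 0 were called by limma, and 4 had an unadjusted p under 0.05. These 4 were *STN8* (0.30), *PSAH-1* (0.29) and *PSAO* (0.29), above 0, and *PSAL* (-0.30), below 0. Under C and D their differences were 0.15 and 0.45, 0.27 and 0.37, 0.25 and 0.30, and -0.27 and -0.26. Of the 8 genes, 1 was called under C and 2 under D. The kinase gene *STN7* had a difference of 0.04 under HL (adjusted p = 0.898) and the phosphatase gene *TAP38* one of -0.03 (adjusted p = 0.927). Of the 21 genes of the light-harvesting antenna, 0 were called, with differences between -0.36 and 0.50 and a median of 0.13, and 7 had an unadjusted p under 0.05, of which 3 were above and 4 below 0. *LHCA4* held one value, 12.4, on all WT HL arrays (SD 0), and its difference under C was 0. The size of its HL difference, -0.28 (adjusted p = 0.121), is therefore uncertain. Of 23 nuclear genes for photosystem subunits, *PSAD-2* (AT1G03130), a subunit at the ferredoxin docking site of photosystem I, was called. It had 3.59, 3.94, 3.67 and 3.80 in *gnat2*, against 4.43, 4.74, 4.82 and 4.48 in WT, and was lower by -0.87 (standard error 0.13, adjusted p = 0.00146). The groups did not overlap, and the median of the list was -0.09.

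The stress lists held few calls. The 20 heat shock proteins and factors had a median of -0.28, with 16 members below 0, but 0 were called lower and 1 at an unadjusted p under 0.05. Their 1 called member, AT5G51440, had 7.24, 6.47, 7.12 and 6.18 in *gnat2*, against 6.92, 4.30, 5.29 and 5.45 in WT, and was higher by 1.26 (standard error 0.32, adjusted p = 0.0431). WT replicate 1 lay among the *gnat2* values. This call held in 2 of 8 fits without 1 array, those without *gnat2* replicate 4 and without WT replicate 1, and the adjusted p reached 0.146 without others. The 14 antioxidant enzymes, the 7 genes of ascorbate synthesis and the 10 fast transcription factors of the HL response gave 0 calls, with medians of 0.08, 0.12 and -0.02 and with 3, 1 and 0 members at an unadjusted p under 0.05. Of 5 genes of mitochondrial alternative respiration and stress, AT2G21640 was called, and *AOX1A*, the alternative oxidase gene, had 0.51 (adjusted p = 0.601).

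The flavonoid and anthocyanin list had 20 of 23 members above 0, a median of 0.24 and 7 members above 0 at an unadjusted p under 0.05, but 1 was called. This was *FLS1* (AT5G08640), flavonol synthase, with 5.11, 5.23, 5.76 and 5.43 in *gnat2* and 4.14, 4.36, 4.95 and 4.70 in WT (0.84, standard error 0.17, adjusted p = 0.0101). The first enzyme of the pathway, chalcone synthase (*TT4*), had 0.62 (adjusted p = 0.0899), and *DFR*, which leads on to anthocyanins, -0.53 (adjusted p = 0.688). *DFR* varied widely, with an SD of 1.09 in *gnat2* and 1.32 in WT. The other members below 0 were *LDOX* (-0.15) and *MYB11* (-0.30). Members above 0 and not called included *UF3GT* (0.49), AT1G03495 (0.62) and *GSTF12* (0.41). All *FLS1* values of *gnat2* were above those of WT. With the 8 HL arrays alone, the adjusted p of *FLS1* was 0.0707.

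In the defence list of 17 genes, *ALD1* (AT2G13810), an aminotransferase for the immune signal pipecolic acid, was called. It had 3.47, 2.61, 2.17 and 2.29 in *gnat2*, against 1.96, 2.04, 1.81 and 1.27 in WT (0.87, adjusted p = 0.0212), and lost the call without *gnat2* replicate 1 or WT replicate 4 (adjusted p up to 0.0762). The marker gene of salicylate signalling, *PR1*, had -0.05 (adjusted p = 0.920). Its group means, 1.11 in *gnat2* and 1.15 in WT, were below the array median, so that a difference may have been missed. Of the 23 jasmonate genes, 15 circadian clock genes, 8 DNA replication genes, 10 aminoacyl-tRNA synthetases and 4 genes of galactinol and raffinose synthesis, 0 were called by limma, and 1, 0, 0, 0 and 1 had an unadjusted p under 0.05. Their medians were -0.10, -0.06, -0.12, -0.03 and -0.30. Of 13 clock genes below 0, the lowest was at -0.42.

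Of 48 genes named as ribosomal proteins, 2 were called higher and 0 lower. *RPL12-A* (AT3G27830), a plastid protein in this list, was higher by 0.44 (adjusted p = 0.0401) but was not called in any of the 8 fits without 1 array (adjusted p from 0.0511 to 0.136). *rps15ab* (AT2G19720) was higher by 0.59 (adjusted p = 0.0167), with values between 2.15 and 2.44 in *gnat2* and between 1.33 and 1.93 in WT, and was lost without *gnat2* replicate 2 or WT replicate 4 (adjusted p up to 0.0597). Among the leaf markers, *SUC2* (AT1G22710), the sucrose transporter of phloem companion cells, had 5.23, 5.48, 5.41 and 5.26 in *gnat2* and 5.93, 6.17, 5.77 and 5.72 in WT. It was lower by -0.55 (standard error 0.12, adjusted p = 0.0233), and the call was lost without *gnat2* replicate 1 or 4 or WT replicate 1 or 2 (adjusted p up to 0.0764). In whole rosettes, fewer cells of a type and less RNA per cell cannot be told apart.

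**Figure D3:**
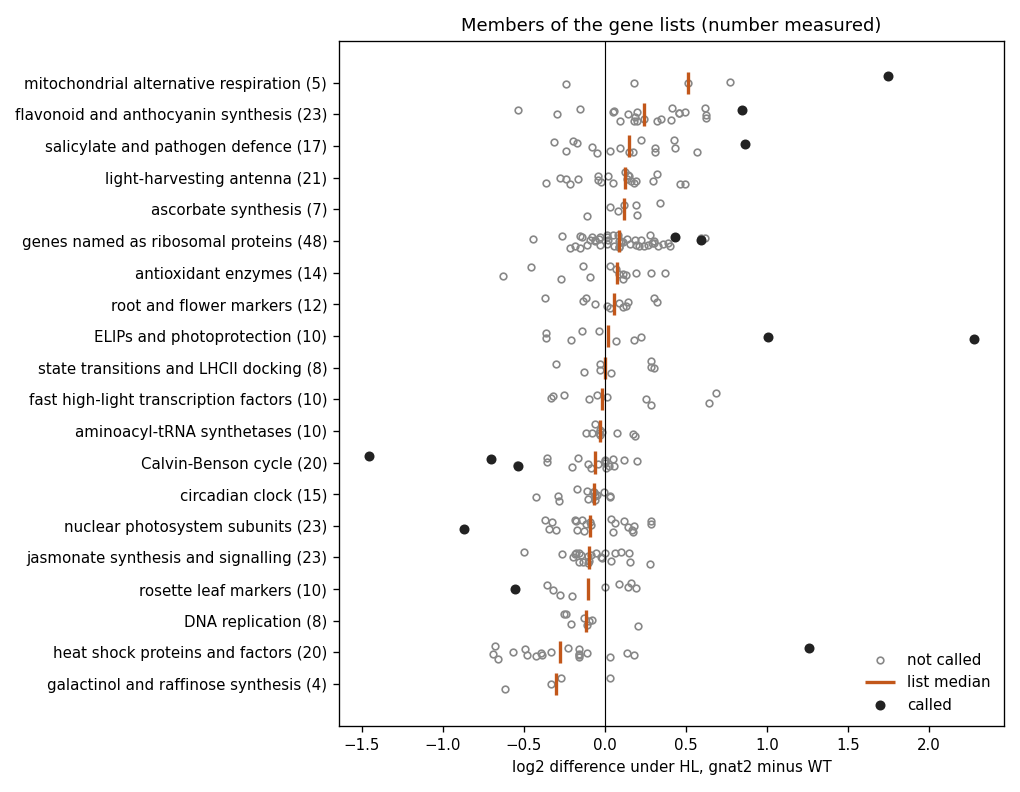
Log2 difference under HL, *gnat2* minus WT (x axis), of the members of 20 gene lists (y axis, number of measured members in brackets), with filled points for called members, open points for the others and an orange line at each list median. Most lists hold 0 or 1 called member, and the 3 called members of the Calvin-Benson list are all below 0.

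Classes of noncoding transcripts differed in their share of calls, and no difference between classes was tested. Among 61 tRNAs, 9 were called higher and 0 lower, or 14.8%, and among 68 snoRNAs 8 were called higher and 0 lower, or 11.8%, against 1.85% of the 26486 protein-coding nuclear transcripts. The share was 2.70% of 222 lncRNAs, all 6 higher, and 0.606% of 165 other ncRNAs, and 0 of 13 snRNAs and 0 of 3 antisense RNAs were called. The medians were 0.30 for tRNAs and 0.27 for snoRNAs, with 43 and 59 members above 0. Per array, the median of the 61 tRNAs was 2.21, 2.42, 2.34 and 2.47 in *gnat2*, against 1.90, 1.98, 2.08 and 1.97 in WT, and that of the 68 snoRNAs was 4.72, 4.601, 4.63 and 4.51 in *gnat2*, against 4.02, 4.35, 4.22 and 4.17 in WT. All *gnat2* arrays were above all WT arrays in both classes. In the other lights, the medians were 0.34 for both classes under C and 0.27 for tRNAs and 0.13 for snoRNAs under D, where 45 tRNAs and 44 snoRNAs were above 0. The differences between lights were not tested for the classes. How well the RNA extraction retained such short RNAs was not tested.

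The single largest noncoding rises were the following. AT4G18725, a tRNA-Glu gene, had 4.07, 4.75, 3.44 and 4.33 in *gnat2*, against 2.12, 2.27, 2.60 and 2.58 in WT (1.75, standard error 0.22, adjusted p = 1.59e-04). The snoRNA AT3G21805 had 6.29, 6.75, 6.63 and 6.49 in *gnat2*, against 5.12, 5.08, 5.50 and 5.29 in WT (1.29, adjusted p = 7.93e-04). The snoRNA AT1G07702 had 4.71, 4.45, 4.46 and 4.46 in *gnat2*, against 3.08, 3.39, 3.38 and 3.17 in WT (1.27, adjusted p = 0.00385). All 3 were also called under C (2.03, 1.06 and 1.39) and D (1.41, 1.41 and 1.43). Non-overlap of the groups under HL was again a condition of naming them.

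From the organelle genomes, 3 of 92 mitochondrial transcripts were called higher and 1 lower, and 1 of 14 plastid transcripts higher. The shares called were 4.35% and 7.14%, against 1.92% of all transcripts. The fall was that of ATMG01200, with 11.1 on each *gnat2* array, against 11.6, 11.4, 11.6 and 11.5 in WT (-0.42, standard error 0.09, adjusted p = 0.0140). It was the only noncoding or organelle transcript with a called fall that met the rule for naming. The mitochondrial ATMG01070 and the nuclear tRNA locus AT2G07743, both higher by 0.96, had values within 0.00684 of each other on every array, so that they were measured by what amounts to one signal and count as one observation. Each is nevertheless included in the count of its own class. The nuclear chromosome that carries AT2G07743 is known to hold a large copy of mitochondrial DNA.

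Among 174 miRNA genes, 4 were called higher and 4 lower, or 4.60%, against 1.92% of all transcripts. Of the 174, 58 were above 0, and the median was -0.09. The called ones are named after their values were seen. *MIR161* had 2.83, 3.07, 3.17 and 2.99 in *gnat2*, against 2.21, 1.73, 2.17 and 2.14 in WT (0.95, adjusted p = 0.00921). *MIR163* had 7.46, 6.78, 7.22 and 7.10 in *gnat2*, against 6.24, 6.12, 6.59 and 6.38 in WT (0.81, adjusted p = 0.0464). *MIR775* (0.92) and *MIR156d* (0.76) were also higher. The 4 falls, of *MIR781a*, *MIR169e*, *MIR426* and *MIR829*, were of 0.43 to 0.57 in size and had all their values below the array median. The probes cover the genes, and levels of mature miRNAs were not measured.

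The genotype differences of HL were next set beside those of C and D, which were measured on other arrays. Under C, 361 transcripts were called (1.3%), and 83 of them were also called under HL, which is 15.6% of the HL calls and 23.0% of the C calls, all 83 in the same direction. Under D, 1090 were called (3.92%), with 106 shared, 19.9% of the HL calls and 9.72% of the D calls, of which 5 had opposite directions. Of the 533 transcripts called under HL, 451 (84.6%) had the same sign under C and 431 (80.9%) under D, against 64.4% and 62.1% of all transcripts. Across all transcripts, Pearson's r of the HL differences was 0.44 with those of C and 0.36 with those of D. The median of the 260 transcripts higher under HL was 0.72 there, 0.25 under C and 0.22 under D. That of the 273 lower ones was -0.59 under HL, -0.29 under C and -0.25 under D. Transcripts chosen by their call under HL have larger differences there by that choice.

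**Figure D4:**
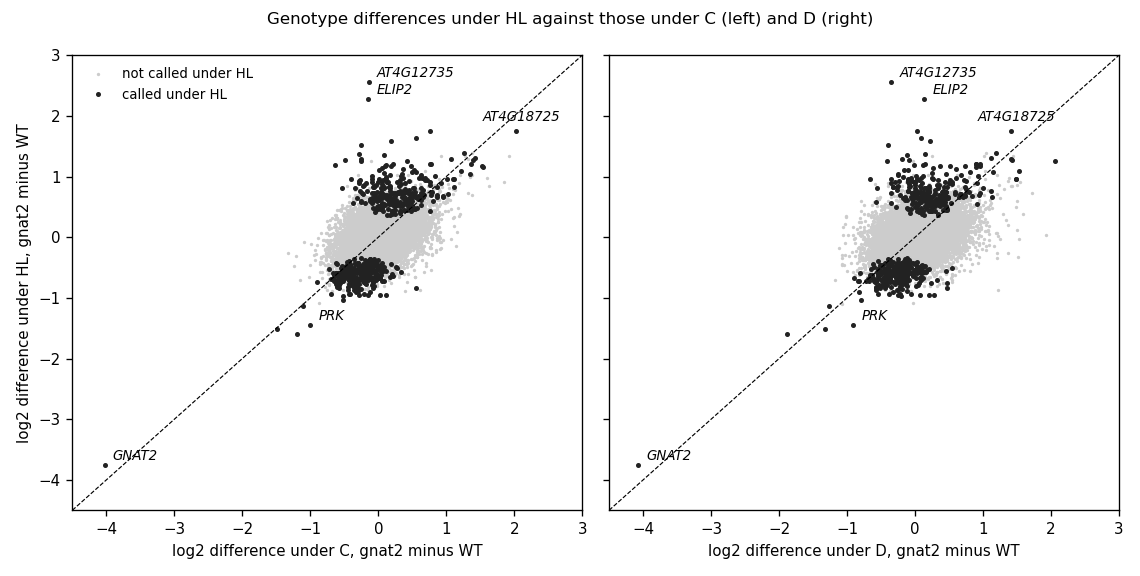
Log2 difference of *gnat2* minus WT under HL (y axis) against that under C (left, x axis) and D (right, x axis) for all transcripts, with the 533 called under HL in black and the diagonal dashed. *GNAT2*, *PRK* and the tRNA AT4G18725 lie near the diagonal, and *ELIP2* and AT4G12735 near 0 on the x axes.

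In all 3 lights, 45 transcripts were called, 23 higher and 22 lower, each in one direction throughout. They lay on every nuclear chromosome, 17 of 7206 measured transcripts on chromosome 1, which holds *GNAT2*, 8 of 4403 on chromosome 2, 9 of 5545 on chromosome 3, 5 of 4203 on chromosome 4 and 4 of 6363 on chromosome 5, with 1 from each organelle genome. AT2G07743 on chromosome 2 and the mitochondrial ATMG01070, which gave the same signal, are both counted here. Beside *GNAT2*, *PRK*, *MRD1*, AT5G11330, AT4G21650 and the tRNA and snoRNAs above, 2 are singled out here after their values were seen. *UBQ10* (AT4G05320), a polyubiquitin gene often used as a reference in expression work, had 6.32, 6.14, 6.07 and 6.31 in *gnat2*, against 6.87, 6.55, 6.69 and 6.78 in WT under HL. It was lower by -0.51 (standard error 0.12, adjusted p = 0.0272), with -0.49 under C and -0.54 under D. Polyubiquitin genes are near-identical in their repeats, so that the signal may include other copies. *PGDH* (AT1G17745), for the plastid enzyme that starts serine synthesis by the phosphorylated pathway, had 3.98, 3.61, 3.86 and 3.71 in *gnat2*, against 4.77, 4.63, 4.20 and 4.51 in WT (-0.74, adjusted p = 0.00695), with -0.90 under C and -0.58 under D.

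Of the 533 transcripts, 389 were called under HL and in neither of the other lights, 190 higher and 199 lower. A call in one light and not in another does not show that the lights differ, and the differences between lights were therefore tested as interactions in the same fit. Against C, 3 transcripts were called (0.0108%), with 1720 at an unadjusted p under 0.05, and against D 32 were called (0.115%), with 2518. The contrast without moderation called 0 against C and 20 against D. With the replicate number as a block, more were called against C and against D, as given in the last section. Among the 389 transcripts, 3 passed the test against C and 13 that against D. A test against the mean of C and D, chosen after the data were seen, called 23 (0.0827%), 20 with a more positive and 3 with a more negative difference under HL, and 17 of these 23 were among the 389.

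The 3 transcripts whose genotype difference under HL differed from that under C were AT4G12735, AT1G75580 and *PDX1L4*. AT4G12735 had a difference of 2.55 under HL, -0.14 under C and -0.35 under D, and the first exceeded the second by 2.70 (standard error 0.42, adjusted p = 0.0173). For AT1G75580 the differences were 1.29, -0.26 and -0.19 under HL, C and D (HL minus C 1.55, adjusted p = 0.0173). *PDX1L4* (AT2G38210), listed as a putative relative of the vitamin B6 synthesis protein PDX1, had 2.92, 2.95, 3.59 and 3.74 in *gnat2*, against 1.84, 2.56, 2.12 and 1.57 in WT under HL (1.28, adjusted p = 0.00208). Its difference was -0.49 under C (adjusted p = 0.247) and -0.09 under D, and its HL minus C value was 1.77 (adjusted p = 0.0315). Under C, the values of these transcripts in both genotypes were below the array median. The calls against C were lost without *gnat2* C replicate 2 or *gnat2* C replicate 4 (0 calls each) and numbered 5 when replicate 1 or 4 of *gnat2* or replicate 2 or 3 of WT under HL was left out. AT4G12735 and AT1G75580 were each called in 14 of the 16 fits without 1 array, and *PDX1L4* in 7.

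For *ELIP2*, the genotype difference of 2.28 under HL stood against -0.15 under C and 0.14 under D. The single *ELIP2* values under C and D lay between 1.04 and 1.62 in both genotypes, below the array median. The test against C gave an adjusted p of 0.0856 and that against D one of 0.0638, both above the threshold, and the test against the mean of both gave 0.0183. *FLS1* was alike, with -0.23 under C and -0.25 under D and adjusted p of 0.163, 0.0638 and 0.0302. *ELIP1*, with 0.34 under C and 0.12 under D, passed none of the 3 tests (adjusted p = 0.532, 0.117 and 0.119).

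**Figure D5:**
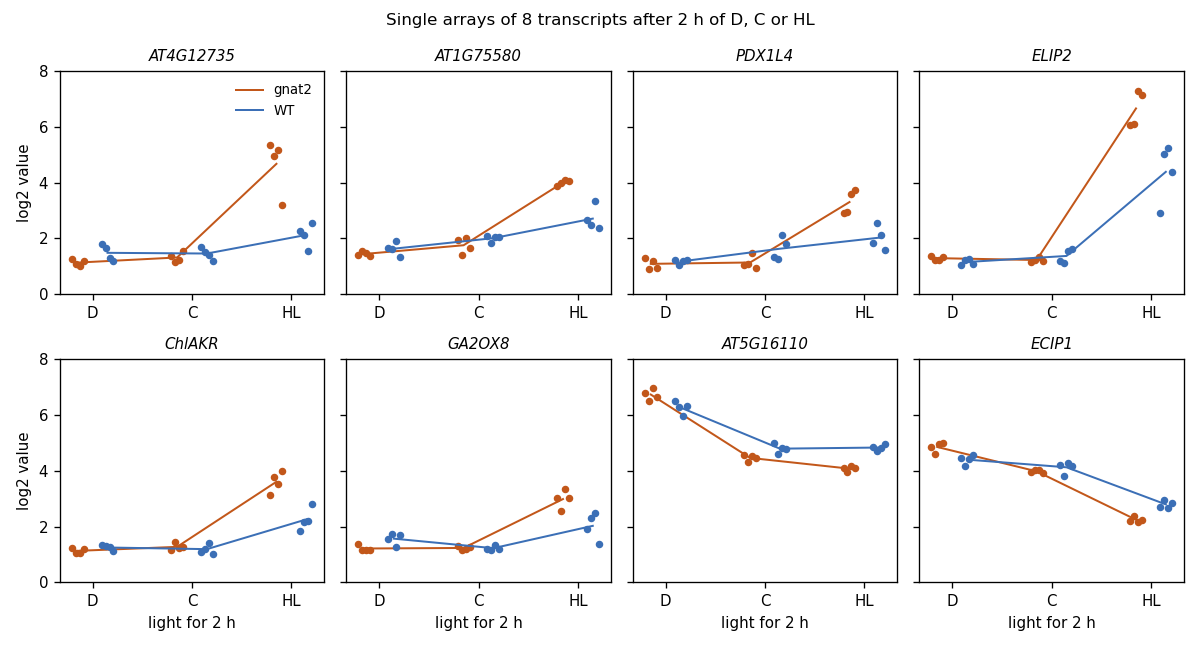
Log2 values (y axis) of 8 transcripts on the single arrays after 2 h of D, C or HL (x axis), *gnat2* in orange left of WT in blue, with lines through the group means. The *gnat2* and WT values do not overlap under HL in AT4G12735, AT1G75580, *PDX1L4*, *ELIP2* and *ChlAKR* and overlap under D and C, with *PDX1L4* at a difference of -0.49 under C, whereas in AT5G16110 and *ECIP1* they change order between D and HL.

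Of the 32 transcripts that differed between HL and D, 18 were also called under HL, 14 higher and 4 lower. The 14 included AT4G12735, AT1G75580, AT2G21640 and *ChlAKR*, described above. *SQD1* (AT4G33030), which makes the head group of the chloroplast sulfolipid, had 6.73, 6.90, 7.01 and 6.75 in *gnat2*, against 5.78, 6.23, 6.06 and 5.98 in WT under HL. Its difference was 0.83 (adjusted p = 0.00426) under HL, 0.09 under C and -0.27 under D (HL minus D 1.10, adjusted p = 0.0245). *GA2OX8* (AT4G21200), a gibberellin-inactivating oxidase gene, had 3.04, 2.54, 3.33 and 3.04 in *gnat2*, against 1.93, 2.31, 2.48 and 1.39 in WT, with differences of 0.96 under HL (adjusted p = 0.00520), 0.01 under C and -0.35 under D. The lncRNA AT5G53048 had 3.42, 3.31, 3.64 and 2.97 in *gnat2*, against 1.97, 2.19, 2.21 and 2.22 in WT (1.19, adjusted p = 6.71e-05), with 0.12 under C and 0.11 under D. None of these 3 overlapped under HL. The others that were higher under HL were AT1G52770 (0.83), AT1G52855 (0.95), AT2G20940 (0.58), AT3G49320 (1.02), AT4G26950 (1.10), AT5G52930 (0.66) and AT5G64230 (1.00), none of which has a symbol. The HL call of AT2G20940 held in 2 of 8 fits without 1 array, those without WT replicate 3 or 4 (adjusted p up to 0.0957).

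The 4 that were lower under HL had the opposite sign under D. AT5G16110 had 4.10, 3.94, 4.17 and 4.11 in *gnat2*, against 4.86, 4.71, 4.83 and 4.95 in WT under HL (-0.76, adjusted p = 0.00166), and a difference of 0.47 under D (HL minus D -1.23, adjusted p = 0.00495). *ECIP1* (AT4G24800), for a protein that binds the ethylene signalling protein EIN2, had 2.20, 2.39, 2.15 and 2.24 in *gnat2*, against 2.72, 2.94, 2.67 and 2.86 in WT (-0.55, adjusted p = 0.0149), and a difference of 0.45 under D. Its HL call was lost without *gnat2* replicate 3 (adjusted p = 0.0543). AT3G29240 (-0.71 under HL, adjusted p = 0.00766, 0.33 under D) and AT5G12950 (-0.50, adjusted p = 0.0469, 0.54 under D) followed the same pattern. The HL call of AT5G12950 held in 2 of 8 fits, those without WT replicate 2 or 4 (adjusted p up to 0.160). Under both HL and D, with opposite signs, 5 of the 18 were called.

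The remaining 14 of the 32 were not called under HL and were all called under D, 5 higher and 9 lower in *gnat2*. Among them, *UGT84A2* (AT3G21560), a glucosyltransferase gene of sinapate metabolism, had differences of 0.61 under HL (adjusted p = 0.0916) and -0.79 under D. *MYB4* (AT4G38620), a repressor of that metabolism, had 0.44 under HL (adjusted p = 0.204) and -0.79 under D. *CSDP1* (AT4G36020), an RNA-binding cold shock domain protein gene, had 0.21 under HL (adjusted p = 0.389) and -0.69 under D. The number of calls against D was 15 and 18 without *gnat2* D replicate 3 and 4, 21 and 17 without *gnat2* HL replicate 1 and 3, and 52 without WT D replicate 2.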

How the data were processed

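The authors hybridized RNA from 4 biological replicates per genotype and light to Affymetrix AraGene-1_0-st arrays, grouped the probes by TAIR gene models (Custom CDF, version 22), corrected the background by RMA and normalized the arrays by quantiles. They deposited 1 log2 value per transcript and array. All arrays then have one distribution, so that differences in total mRNA cannot be seen, and no detection calls were used here. The number of arrays limits the precision. Each p-value sets a difference against a spread estimated over the plants of all 6 groups, not over those under HL alone.

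The deposited log2 values entered a limma fit (3.58.1, R 4.3.3) with 6 group means and 1 spread per transcript (18 residual and 6.05 prior degrees of freedom). Two-sided p-values from empirical Bayes moderation were adjusted (Benjamini-Hochberg) over all 27826 transcripts, with 0.05 as the limit and no fold limit. The test against the mean of C and D was added after the data were seen. The script was tested on simulated data. Symbols and classes came from RefSeq (TAIR10.1), which lists 27241 of the loci.

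Named transcripts were *GNAT2*, *PRK*, the 10 largest coding rises and falls and the 3 largest noncoding or organelle ones among called transcripts without overlap and with a group mean above the median, called list members, and those called in an interaction. Members and lists were chosen with earlier results of these data known. Alternatives were a replicate block, an unmoderated contrast, an intensity trend, array weights, a filter on values below 1.35, 2 other scalings, fewer arrays or transcripts, a fold limit, no adjustment and leaving out each array.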

Additional observations from a re-analysis of the deposited data

Results flagged for a closer look

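In 9 of the 128 groups of 4 HL arrays behind the 64 named transcripts, 1 array lay far from the other 3, which chance alone gives in about 1 group in 20. Far means past Dixon's critical value for 4 samples. For *UGT73C1*, *gnat2* replicate 4 had 4.01, against 4.85 to 4.93 on the other 3 arrays. For *AGP2*, WT replicate 4 had 4.47, against 2.82 to 3.03 on the other 3 arrays. For AT1G07702, *gnat2* replicate 1 had 4.71, against 4.45 to 4.46 on the other 3 arrays. For *ELIP1*, *gnat2* replicate 1 had 6.43, against 7.04 to 7.14 on the other 3 arrays. For AT3G09580, *gnat2* replicate 3 had 1.83, against 1.63 to 1.66 on the other 3 arrays. For *GATA17*, WT replicate 1 had 3.13, against 3.84 to 3.95 on the other 3 arrays. For AT4G32680, *gnat2* replicate 1 had 3.77, against 4.08 to 4.12 on the other 3 arrays. For AT5G53048, WT replicate 1 had 1.97, against 2.19 to 2.22 on the other 3 arrays. For AT5G64230, WT replicate 2 had 2.43, against 3.03 to 3.13 on the other 3 arrays. Of these 9, 5 were in *gnat2* and 4 in WT, and whether they reflect the plants or the arrays was not tested.

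The genotype difference under HL differed from that in another light, by the interaction test in limma at an adjusted p under 0.05, for the following transcripts. Each value is the log2 difference of *gnat2* minus WT under HL less the same difference in the other light. Against C, these were AT4G12735 (2.70), AT1G75580 (1.55) and *PDX1L4* (1.77). Against D, those called higher in *gnat2* under HL were AT4G12735 (2.90), AT2G21640 (1.71), *ChlAKR* (1.47), AT1G75580 (1.48), AT1G52770 (1.15), AT1G52855 (1.62), AT2G20940 (1.16), AT3G49320 (1.28), *GA2OX8* (1.31), AT4G26950 (1.26), *SQD1* (1.10), AT5G52930 (0.81), AT5G53048 (1.08) and AT5G64230 (1.17). Those called lower under HL were AT3G29240 (-1.04), *ECIP1* (-1.005), AT5G12950 (-1.04) and AT5G16110 (-1.23). Those called under D but not under HL were *ATRPAC42* (1.07), AT1G75335 (1.01), AT2G28720 (1.23), *GATA17* (1.19), *UGT84A2* (1.39), AT3G44450 (1.14), AT4G10450 (1.01), *CSDP1* (0.90) and *MYB4* (1.23), with a positive value, and AT2G31790 (-0.94), AT3G09580 (-0.97), AT4G26290 (-1.88), AT4G32680 (-1.08) and AT5G56100 (-2.09), with a negative one. Against the mean of C and D alone, the test chosen after the data were seen, the named transcripts were *ELIP2* (2.28) and *FLS1* (1.08).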

How the results depend on the processing

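The 533 calls under HL became 507 with an intensity trend, 504 with the filter on low values, 487 with cyclic loess, 508 with arrays centred on coding transcripts, 465 with the unmoderated contrast and 459 among coding transcripts alone, but 810 with array weights, 240 with the 8 HL arrays alone (199 shared with the 533), 49 with a limit of 2-fold and 4147 without adjustment. With each array left out, they ranged from 217 to 481. The calls against C (3) ranged from 0 to 5, those against D (32) from 15 to 52 and those against the mean of C and D (23) from 13 to 40. The last were 16 without *gnat2* C replicate 2 or 3, 13 without *gnat2* C replicate 4 or *gnat2* HL replicate 3, 14 without WT HL replicate 1, 36 without WT HL replicate 3 and 40 without WT C replicate 2. The unmoderated contrast gave 0, 20 and 10 calls, and no adjustment 1720, 2518 and 2093. The cause of these shifts was not tested, except that fewer arrays leave fewer degrees of freedom.

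With the replicate number as a block, there were 594 calls under HL (497 shared with the 533) and 9, 41 and 37 in the 3 interaction tests. The deviations of same-numbered *gnat2* and WT arrays under HL correlated with r of 0.18, 0.10, 0.14 and 0.10, and every *gnat2* HL array correlated best with its own number, at most 0.07 with others. The labels do not say that a number marks a shared batch, and the main fit does not pair the samples by number. For HL replicate 2, r was 0.0957, against at most 0.02 with other numbers. Under D, same-numbered arrays had r of 0.21, 0.24, 0.07 and 0.07, and under C 0.15, 0.11, 0.06 and 0.11. Whether the number marks a shared batch was not tested.

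Of the 50 named transcripts called under HL, 39 were called in all 8 fits without 1 array. The block lost 0 of these calls, the unmoderated contrast 4, cyclic loess 1 and the 8 HL arrays alone 13, and no difference reversed. Spearman's rho was 0.41 with C and 0.34 with D, and r over the 13979 transcripts with a mean above the median was 0.49 and 0.38. The medians of tRNAs and snoRNAs stayed between 0.24 and 0.39 and between 0.23 and 0.35. That of miRNA genes, -0.09, was 0.06 without low members. Low signal over background limits the sizes of the falls to, and rises from, values near the array median.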
